A study of Arabidopsis thaliana with 6 samples.

Results

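The introns described here are the shortest in the ovule transcriptome of Arabidopsis thaliana, those of 75 bases or fewer. They were taken from a deposited table of 118281 introns by 3 criteria: a length of at most 75 bases, no overlap with an exon of another annotated transcript, and a mean depth plus spliced reads of at least 10. The table holds 7095 introns of this length, of which 810 overlapped a known exon and 2938 others fell under the read minimum. That left 3347 short introns in 2572 genes, among 70259 introns of any length that met the same criteria on overlap and reads. The choice used length, overlap and reads, and not the retention ratio, although depth and spliced reads also enter that ratio.

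The study compared ovules of PRP8Aa prp8bb plants, labelled as a mixture of PRP8A;prp8b and prp8a;prp8b ovules with T-DNA insertions, with ovules of wild type plants. Each group had 3 libraries of ribosomal-RNA-depleted, stranded total RNA, read in pairs of 100 bases, from flowers at stages 13 to 14 on plants 6 weeks old. By these labels, PRP8B is disrupted throughout the first group. PRP8Aa plants carry an intact and a disrupted copy of PRP8A, so the maternal tissue of every ovule holds both. The mixture of PRP8A and prp8a refers to the haploid cells inside the ovules. The intron table names no sample and therefore carries no genotype and no replicates. Which libraries its values come from is not given in the sources used here, so they are described as a single set, with no test, and the genotypes were compared only through the levels of the genes that hold short introns.

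An intron is removed when the spliceosome pairs its 5′ border, usually GT, and a branch point near its 3′ end with the AG at the 3′ border. PRP8 is the large protein at the heart of the spliceosome, where it holds both borders and the branch point in the catalytic centre. Plant introns are short beside those of animals and rich in A and T, and retention of the whole intron is the most frequent kind of alternative splicing in plants. An intron must keep room between its borders and branch point, so very short introns sit near the lower limit of what can be spliced.

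Gene counts per library totalled 11261844 to 12644525 in libraries labelled PRP8Aa prp8bb and 8497702 to 12460805 in wild type. PRP8A (AT1G80070, named SUS2 in the annotation) had 870.6, 956.4 and 946.8 CPM, counts scaled by library size, in libraries labelled PRP8Aa prp8bb, and 1131, 1139 and 1200 CPM in wild type. The groups did not overlap, but the log2 fold change of -0.32 (SE 0.10) missed the threshold of 0.05 (adjusted p = 0.105 with edgeR's quasi-likelihood test, and 0.0213 with the DESeq2 Wald test, the alternatives running from 0.0213 to 0.350). PRP8B (AT4G38780) had 41.4, 42.8 and 43.8 CPM in libraries labelled PRP8Aa prp8bb and 36.5, 34.9 and 38.4 CPM in wild type (log2 fold change 0.22, adjusted p = 0.251 with the same edgeR test). The 9 of 26 exon bins at the 3′ end of PRP8B, a division chosen after the values were seen, held 31.7%, 6.56% and 17.8% of its bin counts in replicates 1, 2 and 3 labelled PRP8Aa prp8bb, against 27.5%, 35.3% and 37.6% in wild type. This division was the one with the widest spread among the libraries, and the labels give no expected share. Replicate 1 labelled PRP8Aa prp8bb lay within the wild type range by it. The summed egg cell markers and the single synergid and central cell markers below, all at low CPM, kept the groups apart. Whether the label of that library is right was not tested, and host gene counts are given with and without it. Even numbers made up 77.6% of the gene counts above 0 in wild type replicate 1 and 47.7% to 48.6% in the other libraries. That library may hold fragments counted 2 times, and a fit with its counts halved was run as an alternative. Its exon bin counts, 7361474, were fewer than its gene counts, while the bin counts of the other libraries, 18706217 to 23086207, were more. Marker genes of the labelled tissue were detected in every library. The 6 ovule and integument markers summed to 320.0 to 339.8 CPM in libraries labelled PRP8Aa prp8bb and 350.6 to 407.6 CPM in wild type. These markers did not move together. STK, INO and SHP2 were lower in every library labelled PRP8Aa prp8bb, BEL1 and SHP1 overlapped, and ANT was higher. ANT had 87.1, 99.4 and 95.1 CPM against 68.7, 80.4 and 76.4 CPM in wild type. The 5 egg cell markers summed to 4.87 to 8.70 CPM against 19.3 to 24.5 CPM. Among them EC1.2 overlapped, with 1.36, 0.608 and 1.85 CPM against 1.64, 2.73 and 2.40 CPM in wild type, and the others did not. The synergid marker MYB98 had 0.617 to 1.59 CPM against 1.86 to 2.42 CPM, and the central cell marker FIS2 0.811 to 1.06 CPM against 1.95 to 3.97 CPM. The 4 pollen markers summed to 221.3 to 593.2 CPM in libraries labelled PRP8Aa prp8bb and 256.0 to 262.1 CPM in wild type, and the 2 leaf markers to 2085 to 2790 CPM against 2312 to 2708 CPM. No marker was at 0 in all libraries, and in bulk tissue fewer cells of a type and less RNA per cell cannot be told apart.

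The sequences show how little room these introns have. They were read 5′ to 3′ on the transcribed strand from the RefSeq assembly TAIR10.1, whose gene borders matched those of the files (TAIR10) in 99.95% of genes, and the dinucleotides at both borders are in capitals. The first set holds the 5 shortest introns with at least 10 reads spliced at both ends. They lie in AT3G23080 (chr3:8208309-8208367, minus strand), AT4G24930 (chr4:12821874-12821932, minus), PEL1 (AT4G27650, chr4:13806646-13806705, minus), DPE1 (AT5G64860, chr5:25927933-25927992, minus) and ATGRIP (AT5G66030, chr5:26406385-26406444, minus), and all 5 interrupt a coding region.
AT3G23080: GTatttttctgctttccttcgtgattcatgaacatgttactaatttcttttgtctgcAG
AT4G24930: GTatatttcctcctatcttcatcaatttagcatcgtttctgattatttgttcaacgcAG
PEL1: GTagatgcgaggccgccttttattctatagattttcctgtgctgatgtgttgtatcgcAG
DPE1: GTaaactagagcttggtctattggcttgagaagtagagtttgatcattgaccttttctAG
ATGRIP: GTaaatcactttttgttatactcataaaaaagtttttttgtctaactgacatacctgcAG

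The second set holds the 4 introns of highest retention ratio with at least 10 spliced reads and no warning in the table, at most 1 per gene. They lie in the coding regions of AT1G53440 (chr1:19947944-19948010, plus strand), FHY1 (AT1G79790, chr1:30017906-30017971, minus), RGLG4 (AT1G79380, chr1:29861758-29861829, plus) and AT4G02120 (chr4:942673-942737, plus).
AT1G53440: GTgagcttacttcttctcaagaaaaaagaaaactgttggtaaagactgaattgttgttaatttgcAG
FHY1: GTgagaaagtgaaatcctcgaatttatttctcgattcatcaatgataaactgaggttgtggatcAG
RGLG4: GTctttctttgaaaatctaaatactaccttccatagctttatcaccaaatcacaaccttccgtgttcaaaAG
AT4G02120: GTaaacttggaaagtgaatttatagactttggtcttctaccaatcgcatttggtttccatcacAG

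The third set holds the 3 short introns with the most spliced reads, which were almost fully removed, again from coding regions. They belong to THI2.1 (AT1G72260, chr1:27199064-27199138, minus strand), AT4G27090 (chr4:13594368-13594435, minus) and AT4G34670 (chr4:16549479-16549548, plus).
THI2.1: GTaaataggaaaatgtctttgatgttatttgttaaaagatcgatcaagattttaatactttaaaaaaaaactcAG
AT4G27090: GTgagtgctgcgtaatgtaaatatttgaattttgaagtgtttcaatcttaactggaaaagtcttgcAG
AT4G34670: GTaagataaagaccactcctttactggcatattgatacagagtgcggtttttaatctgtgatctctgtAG

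The last set holds the short introns of the genes that the mutant line disrupts. PRP8A has 1 at chr1:30118595-30118667 (intron 2 of 23, plus strand) and 1 at chr1:30126984-30127052 (intron 22), and PRP8B has 1 at chr4:18106507-18106580 (intron 10 of 23, minus strand).
PRP8A intron 2: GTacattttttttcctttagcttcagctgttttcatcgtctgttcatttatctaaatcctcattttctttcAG
PRP8A intron 22: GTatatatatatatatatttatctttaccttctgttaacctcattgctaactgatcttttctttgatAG
PRP8B intron 10: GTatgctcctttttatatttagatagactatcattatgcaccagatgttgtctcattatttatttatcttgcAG

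Short introns had higher retention ratios than introns of common length. The retention ratio is, in most introns, the mean depth over the intron divided by the sum of that depth and the larger count of reads spliced at either border. It is near 0 where spliced reads prevail and near 1 where unspliced cover does. A ratio of 0 means no depth over the intron as tabulated, and reads can still cross its borders. Its median was 0.0294 over the 3347 short introns (quartiles 0.00258 and 0.0714), against 0.0168 over 66704 introns of common length, from 76 to under 1000 bases (quartiles 0.00120 and 0.0455). A ratio of 0.1 or more was reached by 560 short introns, 16.7% of them, against 8.53% of introns of common length. A ratio of 0.5 or more was reached by 26 short introns (0.777%), against 0.166%. The 208 introns of 1000 bases or more that met the same criteria had a median of 0.0229, and 11.1% of them reached 0.1. A ratio of 0 was about as frequent in short introns, at 23.3%, as at common length, at 23.4%. Against common length the same order held when reads crossing the exon-intron borders replaced the depth, with a median of 0.0385 in short introns and 0.0286 at common length. Against the introns of 1000 bases or more it did not hold for every measure. Of those, 2.40% reached 0.5, their median by border reads was 0.0366, and 19.2% reached 0.1 by border reads, against 18.2% of short introns.

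Median ratios were higher the shorter the introns. The 9 introns of 51 to 60 bases had a median ratio of 0.404, and 77.8% of them reached 0.1. In this bin 4 introns had no spliced read, met the read minimum through depth alone and had a ratio of 1. The other 5 had ratios from 0.0769 to 0.404. Of the 110 introns of 61 to 65 bases, 40.0% reached 0.1 and the median was 0.0687. The 691 introns of 66 to 70 bases had a median of 0.0359 (17.1% at 0.1 or more), and the 2537 of 71 to 75 bases one of 0.0275 (15.4%). The decline continued past the limit, to 0.0208 (11.8%) at 76 to 80 bases and 0.0167 (9.20%) at 81 to 85 bases. Medians then stayed between 0.0142 and 0.0194 up to 1000 bases. The limit of 75 bases marks no step: the 676 introns of exactly 75 bases had a median of 0.0257 and the 876 of 76 bases one of 0.0230. At the read minimum, the 207 short introns with a depth plus spliced reads of 10 to under 12 had a median of 0.0481, and the 226 with 8 to under 10, which were left out, had 0.0279.

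**Figure D1:**
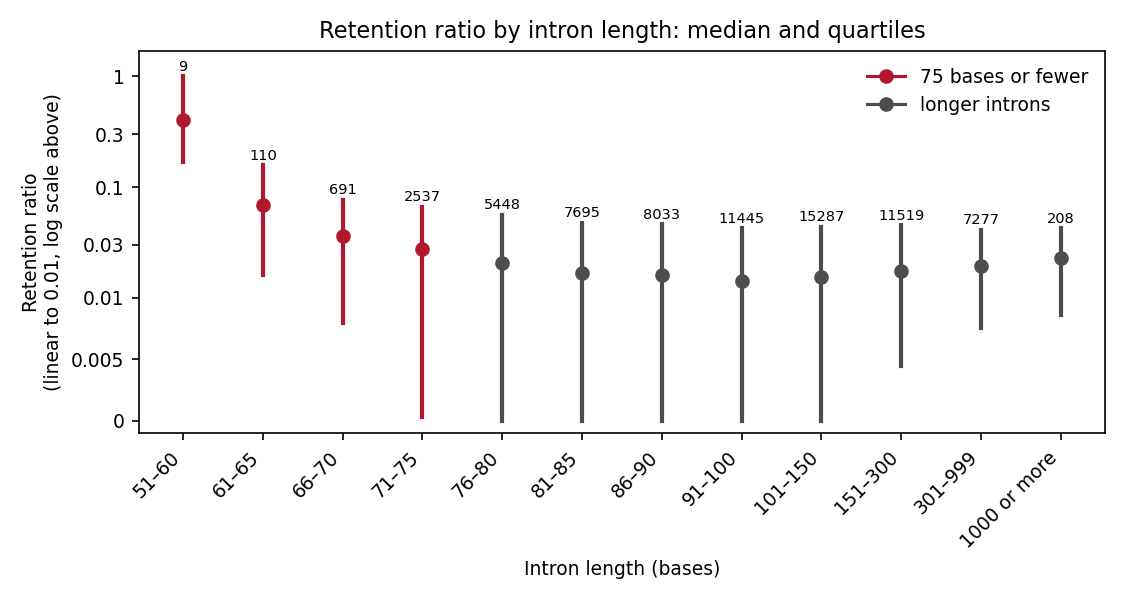
Retention ratio (vertical axis, linear to 0.01 and logarithmic above) by intron length in bases; points are medians, lines run between the quartiles, and the number of introns stands above each line. The median is 0.404 in the 9 introns of 51 to 60 bases, 0.0275 at 71 to 75 bases and 0.0142 at 91 to 100 bases. Of those 9 introns, 4 had no spliced read, were selected through depth alone and had a ratio of 1.

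Introns with like numbers of spliced reads were also set side by side. Spliced reads enter the ratio, so retention itself lowers them, and a fall of the share with more spliced reads is in part built into the measure. Among introns with 10 to 19 reads spliced at both ends, 25.8% of 900 short introns reached a ratio of 0.1, against 16.8% of 16085 introns of common length. With 20 to 49 spliced reads the shares were 14.1% and 6.85%. With 50 to under 200 spliced reads they were 4.72% in 890 short introns and 1.33% in 19321 others. With 200 or more, 0.901% of 111 short introns reached 0.1, against 0.261% of 3445. The share in short introns was the larger in each of these ranges, and it fell with the number of spliced reads in both length classes. Within the range of 50 to under 200 spliced reads, the introns of 51 to 65 bases (n = 20) had 25% at 0.1 or more, those of 66 to 70 bases 5.71%, those of 71 to 75 bases 3.88% and those of 76 to 80 bases 2.01%. The fall with length was not as even in each range. With 10 to 19 spliced reads the shares were 24.6% at 66 to 70 bases and 25.3% at 71 to 75 bases, and with 200 or more they were 0% in both and 0.417% at 76 to 80 bases.

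**Figure D2:**
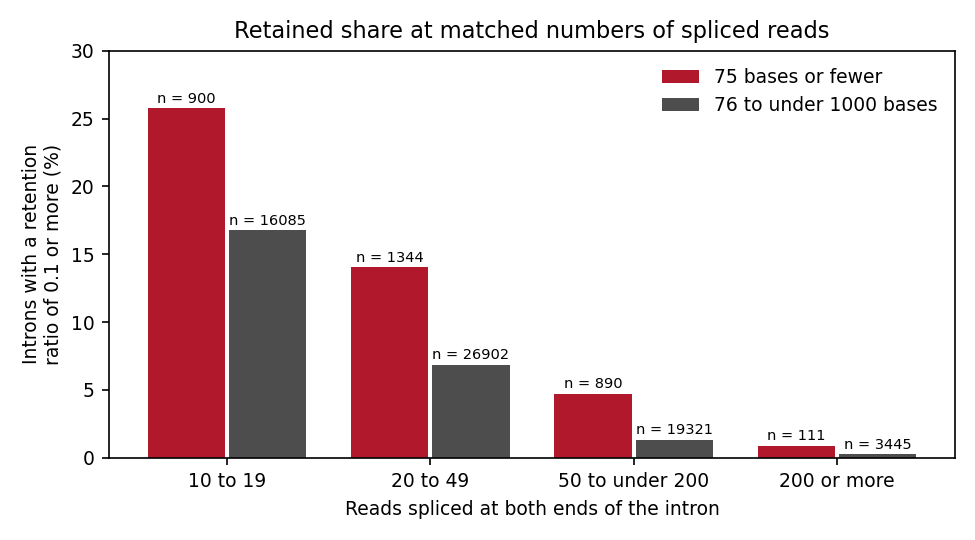
Percent of introns with a retention ratio of 0.1 or more (vertical axis) at matched numbers of reads spliced at both ends, for introns of 75 bases or fewer beside introns of common length; n is the number of introns. Short introns have the larger share in each range, 25.8% against 16.8% at 10 to 19 reads and 4.72% against 1.33% at 50 to under 200 reads.

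Introns of a gene share its transcript level and its libraries. In 2466 genes that hold both lengths, the median ratio was 0.0296 for short introns and 0.0181 for those of common length. The short introns lay higher in 1455 of these genes (59.0%), lower in 889 (36.1%) and equal in 122, and the median difference within a gene was 0.00787. With border reads in place of depth the short introns lay higher in 1405 genes and lower in 976.

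The 10 most retained introns under the rule on reads and warnings had ratios from 0.372 to 0.680 and lengths of 59 to 72 bases. AT1G53440 encodes a leucine-rich repeat receptor kinase, and intron 8 of its 22, of 67 bases, had a ratio of 0.680. There 39 reads crossed the left border and 53 the right one unspliced, against 23 spliced at both ends, so unspliced reads made up 62.9% at the left border (95% exact Clopper-Pearson interval 49.7 to 74.8) and 69.7% at the right (58.1 to 79.8). The other 21 measured introns of this gene had a median of 0.0435 and none exceeded 0.217.

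FHY1, a hydrolase of the haloacid dehalogenase superfamily, retained the first of its 5 introns (66 bases) at 0.625, while its other 3 measured introns reached at most 0.138. The 72-base intron 4 of RGLG4, a gene of a copine-domain ubiquitin ligase family, had 0.609 with 23 spliced reads, against a maximum of 0.114 in the other 9. AT4G02120, for a CTP synthase, followed at 0.571 with 10 spliced reads. The ratio thus exceeded 0.5 in all 4, although in each of the 4 the interval of the unspliced percent includes 50 at 1 border or both. It includes 50 at the left border alone in AT1G53440 and in RGLG4 (46.6 to 73.0). It does so at both borders in FHY1 (47.8 to 80.9 at the left, 35.3 to 74.5 at the right) and in AT4G02120 (27.2 to 72.8 and 45.7 to 82.1).

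The single introns of AT1G52565, annotated in the cytochrome P450 family (61 bases), and of BLOS2, a subunit of the BLOC-1 complex of vesicle traffic (71 bases), had ratios of 0.467 and 0.403. AT2G03280, an O-fucosyltransferase gene, had 0.444, AT1G30910, of the molybdenum cofactor sulfurase family, 0.426, and AT2G46915, of unknown function, 0.372. Of the 8 genes among these 10 with other measured introns, 7 had none as high as the short intron. The exception was AT2G46915, where another intron had a ratio of 1 and no spliced read. In length, 8 of the 10 introns were not multiples of 3 and the other 2 held an in-frame stop codon, so none left the reading frame open when retained.

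Shortness did not fix the ratio. Of the 5 shortest introns with at least 10 spliced reads, AT3G23080, of a lipid transfer superfamily, had 0.404 at 59 bases with 17 spliced reads. AT4G24930, which encodes a thylakoid lumen protein and is also interrupted at 59 bases, had 0.167 with 20 spliced reads. PEL1, of the release factor eRF1 family, had 0.211. DPE1, an enzyme of starch breakdown, had 72 reads spliced across 60 bases and a ratio of 0.0886, and ATGRIP, a Golgi protein gene, had 0.0769. In 3 of these 5 genes the short intron exceeded all others measured.

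At the other end stood short introns of abundant transcripts. THI2.1, which encodes an antimicrobial thionin, had 5747 reads spliced across 75 bases and a ratio of 0.00354. Its left border was crossed by 206 unspliced reads and its right border by 23, and the table warns of uneven cover there. Introns of ribosomal protein genes took the next 4 places, with AT4G27090 (L14, 68 bases) at 2660 spliced reads and a ratio of 0.00112 and AT4G34670 (S3Ae, 70 bases) at 2005 reads and 0.0123. AT5G16130 (S7e) and AT2G01250 (L30/L7) had ratios of 0.00281 and 0.00155 with 1417 and 1231 spliced reads. The warning of uneven cover also applied to AT4G27090, AT5G16130 and AT2G01250. In AT2G01250, 38 unspliced reads crossed the left border and 1 the right, and in AT5G16130 16 and 3 did. From border reads the ratios were higher: 0.0195 in THI2.1, 0.00337 in AT4G27090, 0.0126 in AT4G34670, 0.00666 in AT5G16130 and 0.0156 in AT2G01250. Several ribosomal protein genes have close copies, and reads shared among copies could be assigned unevenly.

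No splicing was seen in the 4 selected introns under 59 bases. They lie in SEC15B (51 bases), AT4G05631 (53), AT5G02650 (55) and AT5G28320 (56), with depths of 47.3, 185, 11.4 and 10.7 in that order and no spliced read, and the table marks each for low splicing. Set against their border reads, a count of 0 allows a spliced share of up to 7.06% in SEC15B, 1.52% in AT4G05631, 28.6% in AT5G02650 and 30% in AT5G28320. Longer ones included, 18 short introns had no spliced read, and 14 of these had a ratio of 0.5 or more. Of the 26 introns at 0.5 or more, 4 had at least 10 spliced reads and 15 carried the low-splicing warning. AT4G05631 supplied 3 of the 26, with introns 1, 4 and 5 of 9 read through at depths of 185, 193 and 110 and a single spliced read among them. Intron 2 of SDG2, a histone methyltransferase gene, had a depth of 38.2 over 74 bases and no spliced read. For such introns the table does not tell an unspliced intron from an annotated one that is not used in ovules.

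At a ratio of 0 were 779 short introns, of which 608 had neither depth nor a read across a border, while the others had no depth but border reads. Most had few reads, and 127 had 50 or more spliced reads. Intron 4 of GH9B13, a glycosyl hydrolase gene named here after its values were seen, had 279 spliced reads and no unspliced one, which allows an unspliced share of up to 1.08%. Both PRP8A introns were of this well-spliced kind: intron 2 had 236 spliced reads and a ratio of 0.00422, and intron 22 had 205 and a ratio of 0, with 2 reads across a border. The short intron of PRP8B had 15 spliced reads and none unspliced, which allows a share of up to 20%.

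AT4G02120 holds the most short introns of any gene, 7 of 16 measured among its 19. In transcript order their ratios were 0.290 at intron 4 (74 bases), 0.00602 at intron 6 (65), 0.0526 at intron 7 (69) and 0.216 at intron 8 (70). Intron 9 (74 bases) had 0.557, intron 11 (65) 0.571 and intron 13 (61) 0.184. Thus 5 of the 7 reached 0.1, while introns 6 and 11, both of 65 bases, differed by the most. The tabulated depth of intron 6 was 0 although its ratio was not, so the formula above does not give its ratio. Unspliced reads at the borders of intron 6 numbered 2 and 0 against 42 spliced, and at intron 11 they numbered 10 and 19 against 10 spliced. The 9 longer introns of the gene had a median of 0.0488 and a maximum of 0.235, at intron 10 between the most retained pair. Over the gene as a whole, AT4G02120 had 40.5, 42.2 and 40.5 CPM in libraries labelled PRP8Aa prp8bb and 47.4, 44.5 and 45.2 CPM in wild type. The groups did not overlap, but the difference did not pass (log2 fold change -0.15, SE 0.09, adjusted p = 0.419, edgeR quasi-likelihood test).

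**Figure D3:**
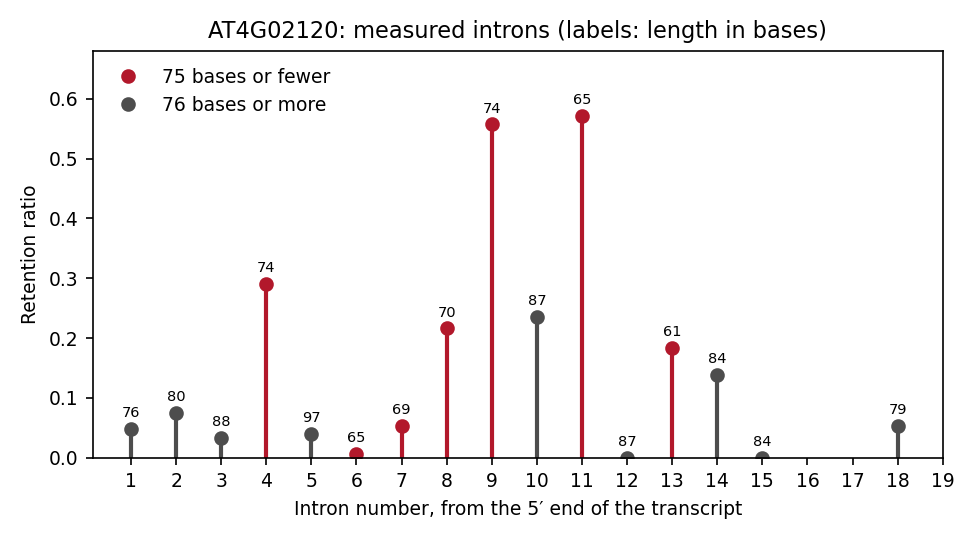
Retention ratio (vertical axis) of the 16 measured introns of AT4G02120 by intron number from the 5′ end, with the length in bases above each point, for introns of 75 bases or fewer and longer ones. Short introns 9 and 11 stand highest at 0.557 and 0.571, while short intron 6 is at 0.00602.

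In 12 genes there were 5 or more short introns, and they differed in how many reached 0.1. The 6 of TOR, the growth-controlling kinase, ran from 0.00862 to 0.0921, and the 6 of AT1G67120, a midasin-like gene of ribosome assembly, from 0 to 0.0517. The 6 of the callose synthase gene GSL12 stayed at or under 0.0416. By contrast, 3 of the 5 in EMB2369, a tRNA synthetase gene, reached 0.1 with a maximum of 0.375, and 2 of the 5 in DAW1, a WD40 repeat gene, did with a maximum of 0.351. In AT2G37420, a gene of the microtubule motor family, 2 of the 5 reached 0.1 with a maximum of 0.214. Among introns of common length in these genes, 4 of 14 in EMB2369, 2 of 13 in DAW1 and none of 13 in AT2G37420 reached 0.1. So did 1 of 49 in TOR, 1 of 66 in AT1G67120 and 1 of 34 in GSL12. AT5G61140, annotated as a helicase of the U5 small nuclear ribonucleoprotein, had 5 short introns from 0 to 0.133. Of these 12 genes AT4G17140, with 5 short introns up to 0.143, changed in level, with a mean of 327.1 CPM in libraries labelled PRP8Aa prp8bb and 217.7 CPM in wild type (log2 fold change 0.59, adjusted p = 0.00591, edgeR).

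Nearly all short introns, 3330, lay in coding regions, with 8 in 5′ UTRs and 9 in 3′ UTRs, and all 3347 matched an annotated intron at both borders. The 9 introns in 3′ UTRs had a median ratio of 0.0556, and 22.2% of them reached 0.1, against 0.0294 and 16.7% in coding regions. By border reads 55.6% of them reached 0.1, against 18.1% in coding regions. At common length, introns in 3′ UTRs were also higher, with a median of 0.0357 and 20.4% at 0.1 or more. Those in coding regions had 0.0166 and 8.42%. By order within the gene, the median ratio was 0.0323 in the first introns of their genes (n = 190), 0.0290 in internal introns (n = 2700) and 0.0286 in the last (n = 341). Pooled over introns, the mean of unspliced reads at both borders made up 6.93% of that mean plus spliced reads in the first introns. In internal introns it made up 4.52%. The pooled value of the first introns includes intron 1 of AT4G05631, with 243 and 152 border reads and no spliced read. Counted per intron, 17.4% of the first and 16.4% of internal introns reached 0.1. An intron that is a multiple of 3 with no in-frame stop would add amino acids if retained. The 184 short introns of this kind had a median of 0.0257, against 0.0303 in the 1158 multiples of 3 with a stop and 0.0294 in the 1988 of other lengths. By border reads the order was the reverse, with medians of 0.0429, 0.0379 and 0.0385 in these 3 sets, so depth and border reads gave no common order.

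Base composition and border sequences of short introns were set beside those of common length. Borders were GT and AG in 99.4% of them and GC and AG in 21, and no AT-AC intron was found, nor among the 5448 of 76 to 80 bases, while AT-AC introns made up 0.0780% of those of common length. The median A and T content was 66.7%, against 66.8% at common length, and the median T content 40.5% against 41.0%. In the last 20 bases the median T content was 40% in short introns and also in those of 76 to 80 bases, against 45% at common length. A GTAAG start was present in 19.3% against 16.9%, and a TGCAG end in 23.0% against 21.7%. All 3 reading frames were closed by a stop codon in 50.5% of short introns, against 74.2% of the longer ones, which have more room for one.

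The last 50 bases were searched, on the transcribed strand only, for the plant branch point motif CTAAC and for 3 forms of it, written as CTGAC, as CTAAT and as CTGAT. Matches can share a base with each other. At least 1 was present in 30.1% of short introns, 27.8% of introns of 76 to 80 bases and 27.7% of introns of common length. Short introns with a ratio of 0.1 or more held one in 25.5%, against 32.5% of short introns with a ratio under 0.02. For CTAAT the shares were 6.25% and 12.9%, the widest gap of any single motif. For CTAAC the shares were close, at 6.43% and 7.12%. They were also close for CTGAT, at 10.5% and 10.8%. For CTGAC the order was the reverse, at 3.75% and 3.56%. In introns of common length the more retained also had the lower share for any of the motifs, 25.8% against 28.2%. The same held there for CTAAT, at 7.69% against 10.6%. The A and T content was 65.6% in the more retained and 68% in the less retained short introns. At common length it was 65.5% and 67.4%. Among the sequences printed above, ATGRIP holds CTAAC overlapping a CTGAC match, and PRP8A intron 22 holds CTAAC overlapping a CTGAT match. AT3G23080 holds CTAAT, and AT4G24930 and PEL1 each hold CTGAT. The 4 most retained of those printed hold none of the 4 motifs, nor do the 3 most often spliced. Of the 10 most retained introns under the rule on reads and warnings, 3 held a motif (CTAAT in AT2G03280, AT3G23080 and AT2G46915), beside 30.1% of all short introns.

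Short introns were held by 6 of 20 listed spliceosome core genes, beside 2572 of all 12556 genes with a measured intron. Of the 20 listed spliceosome genes, these 6 held 7 short introns with a median ratio of 0.0123, none reaching 0.1, while the longer introns of the list had a median of 0.00890. PRL1, of the Prp19-associated complex, stood highest at 0.0586, followed by AT1G60900 (U2AF65B, which recognises the 3′ border) at 0.0426, the U1 snRNP protein U1-70K at 0.0150 and ATU2AF65A, the paralog of U2AF65B, at 0.0123. Of the 22 listed SR protein genes and other regulators, which steer the choice of splice sites, 6 held 7 short introns with a median of 0.0408, against 0.0207 in 108 longer introns. The highest was an intron of SR34b in its 3′ UTR at 0.208, followed by RS40 (0.0910), SR30 (0.0907) and RSZ21 (0.0408). Of 344 ribosomal protein genes, 20 held 23 short introns with a median of 0.0123, against 0.00784 in 755 longer introns. AT5G47940, annotated as a 40S protein S27, was the only one of the 23 to reach 0.1, and EMB3126 (L1p/L10e) had 0.0604, AT4G21460 (S24/S35) 0.0408 and AT4G11630 (L19) 0.0385.

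The genotypes were compared through gene levels, by edgeR's quasi-likelihood test over 19297 genes with Benjamini-Hochberg adjustment. Of the 2572 genes that hold a short intron, 2571 were tested, 69 rose and 32 fell in libraries labelled PRP8Aa prp8bb. Over all genes tested 3.05% rose and 2.79% fell (5.85% in either direction), and over the 12540 tested genes with a measured intron of any length 3.13% rose and 1.32% fell (4.45%). The shares among genes with a short intron, 2.68% and 1.24%, lay near those of genes with a measured intron of any length. Against all genes tested the share that fell was lower, at 1.24% against 2.79%. The median log2 fold change of genes with a short intron was 0.02, against -0.01 over all genes tested. Without replicate 1 labelled PRP8Aa prp8bb, 82 rose and 27 fell. The counts were 27 and 7 without replicate 3 of that group, 26 and 6 without wild type replicate 3, 47 and 21 without wild type replicate 2, 81 and 53 without wild type replicate 1, and 66 and 19 without replicate 2 labelled PRP8Aa prp8bb. Over all genes tested, 589 rose and 539 fell with all libraries. These became 692 and 543 without replicate 1 labelled PRP8Aa prp8bb, 543 and 410 without replicate 2 and 250 and 181 without replicate 3. Without wild type replicates 1, 2 and 3 in turn they were 692 and 707, 414 and 447, and 257 and 198.

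Genes with and without a more retained short intron were set side by side, with no test of the difference between them. Of 510 tested genes with a short intron at a ratio of 0.1 or more, 15 rose (2.94%) and 6 fell (1.18%), against 54 (2.62%) and 26 (1.26%) of 2061 with all short introns under 0.1. The counts of 15 and 6 became 5 and 1 without replicate 3 labelled PRP8Aa prp8bb, 7 and 1 without wild type replicate 3, and 14 and 3 without replicate 2 labelled PRP8Aa prp8bb. They were 10 and 5 without wild type replicate 2, and 18 and 9 without wild type replicate 1. The counts over all genes tested, given above, moved in the same direction in each of these fits. The median log2 fold change was 0.01 in the first set and 0.02 in the second. None of the 10 genes with the most retained introns passed: their log2 fold changes ran from -0.34 in AT3G23080 to 0.05 in RGLG4. AT1G53440 had 118.3, 126.6 and 130.1 CPM in libraries labelled PRP8Aa prp8bb and 125.7, 106.8 and 129.7 CPM in wild type, and the groups overlapped. Of the 153 genes with 3 or more short introns, 4 rose and 2 fell. Of the genes with short introns in the spliceosome, SR protein and ribosomal lists none rose or fell. In the whole lists 1 of 22 SR protein and related genes rose, and none of 20 spliceosome and 316 tested ribosomal protein genes passed in either direction.

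**Figure D4:**
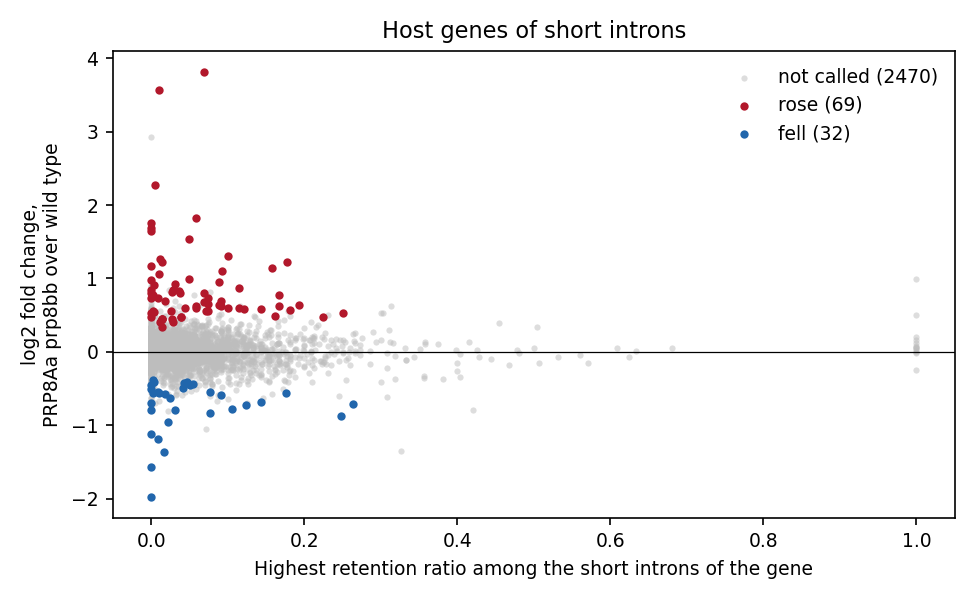
Log2 fold change of PRP8Aa prp8bb over wild type (vertical axis) against the highest retention ratio among the short introns of each of 2571 tested genes (horizontal axis); coloured points rose (69) or fell (32) at adjusted p under 0.05. No gene with a short intron above 0.5 is called, but only 26 short introns reach 0.5, and 3.93% of all the genes shown are called. The largest changes belong to genes with ratios under 0.1, as do 2061 of the 2571 genes.

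The largest rises and falls are given for genes whose groups do not overlap, since that was part of the rule that chose them. MLO6, of the MLO family of membrane proteins known for mildew susceptibility, had 53.7, 45.3 and 53.0 CPM in libraries labelled PRP8Aa prp8bb and 5.84, 0.780 and 4.64 CPM in wild type. The log2 fold change was 3.81 (SE 0.51, adjusted p = 0.0115, edgeR), and its 74-base intron had a ratio of 0.0693. AT4G30650, annotated as responsive to low temperature and salt, had 21.4, 10.3 and 15.3 CPM against 0.701, 1.48 and 1.62 CPM in wild type (log2 fold change 3.56, SE 0.35, adjusted p = 0.000764, edgeR).

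PPME1, a pollen pectin methylesterase, had 82.4, 33.5 and 64.4 CPM in libraries labelled PRP8Aa prp8bb and 17.3, 10.8 and 9.75 CPM in wild type (log2 fold change 2.28, adjusted p = 0.0241, edgeR). It is 1 of the 4 pollen markers, of which VGD1 had 485.3, 179.3 and 367.9 CPM against 224.2, 238.2 and 235.5 CPM in wild type, with overlapping groups. The part of pollen RNA in the PPME1 difference was not tested.

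The superoxide dismutase gene FSD1 (log2 fold change 1.76), the beta-glucosidase gene BGLU44 (1.68), BEE3 of brassinosteroid signalling (1.65), AT5G67340 of the ARM repeat superfamily (1.82) and the carboxypeptidase gene scpl47 (1.53) also rose. So did the beta-amylase gene BAM5, with 256.0, 464.6 and 367.2 CPM in libraries labelled PRP8Aa prp8bb and 147.4, 165.7 and 137.0 CPM in wild type (1.27). ISA3, a starch debranching enzyme, had 89.8, 72.5 and 83.4 CPM against 37.3, 27.6 and 35.1 CPM (adjusted p = 0.000786, edgeR). Its 71-base intron had a ratio of exactly 0.1, with a depth of 2 and 18 spliced reads. DPE1, the gene with the 60-base intron printed above, had 61.8, 59.5 and 57.9 CPM in libraries labelled PRP8Aa prp8bb and 46.2, 32.8 and 36.7 CPM in wild type, so the groups did not overlap (0.64, SE 0.13, adjusted p = 0.0183, edgeR).

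The largest falls were smaller in fold. RVE8, a MYB-related transcription factor of the circadian clock, had 7.71, 10.6 and 11.6 CPM in libraries labelled PRP8Aa prp8bb and 26.2, 53.3 and 37.1 CPM in wild type (log2 fold change -1.97, SE 0.27, adjusted p = 0.00600, edgeR). Its 69-base intron had a ratio of 0 with 18 spliced reads. AT1G11330, an S-locus lectin kinase gene (log2 fold change -1.57), the inositol synthesis gene MIPS2 (-1.36), AT3G54500 (-1.19) and the inositol oxygenase gene MIOX1 (-1.11) fell by less. So did the peptide transporter gene PTR5 (-0.96), ASG1 (-0.83), AT3G28940 (-0.80) and ATH13 (-0.79). BXL2, a beta-xylosidase gene of the cell wall, had 46.3, 35.4 and 41.2 CPM in libraries labelled PRP8Aa prp8bb and 99.1, 54.4 and 72.8 CPM in wild type (-0.87, adjusted p = 0.0492, edgeR). Of these 10 fallen genes it alone had a short intron above 0.1, at 0.249 with 10 spliced reads.

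**Figure D5:**
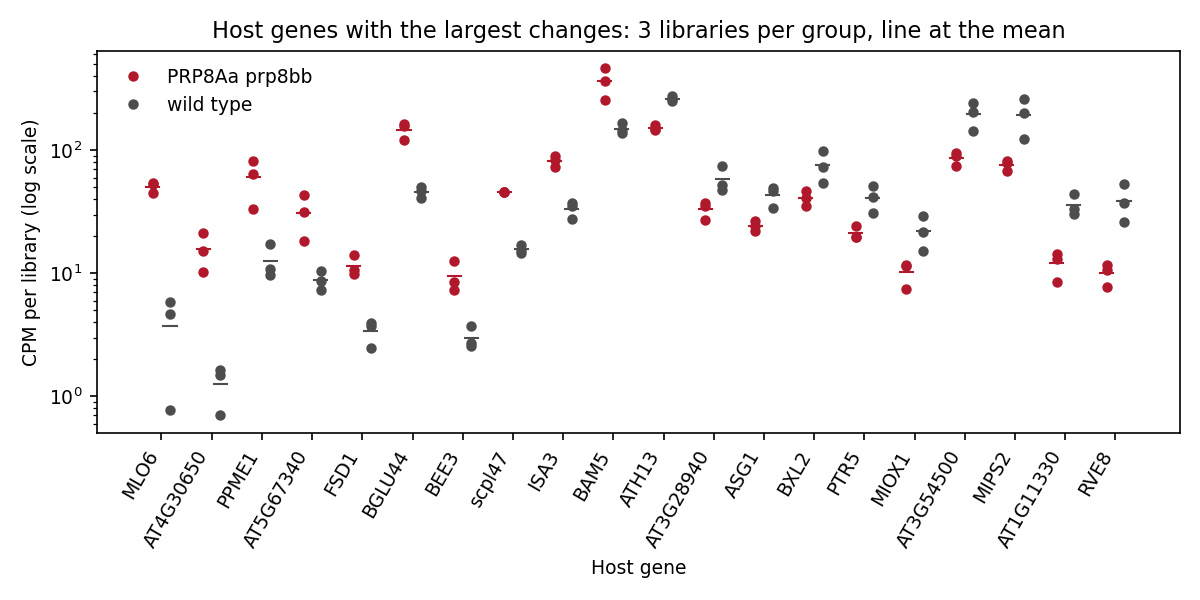
CPM per library (logarithmic vertical axis) of the 10 genes with the largest rises and the 10 with the largest falls among genes that hold a short intron; points are the 3 libraries of each group, PRP8Aa prp8bb left of wild type, and lines are means. That the groups of a gene do not overlap was part of the rule that chose these genes. MLO6 shows the widest gap, with 50.7 CPM against 3.76 CPM on average.

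Of the 26 named genes that rose or fell, 15 kept the call under each of 13 alternatives and 11 lost it under at least 1. These 26 include AT4G17140 (adjusted p = 0.0492 at most, edgeR) and AT1G75300, BAT1 and OHP, which kept it, and the iron-sulphur scaffold gene NFU3, which lost it (0.118 at most). MLO6 lost it without replicate 3 labelled PRP8Aa prp8bb or without wild type replicate 3 (adjusted p = 0.0613 at most, edgeR). DPE1 lost it without either of these or wild type replicate 2 (at most 0.110), and PPME1 without any of the same 3 libraries or with no filter on low counts (at most 0.108). AT5G67340 (at most 0.0883), ASG1 (0.0678), PTR5 (0.0688) and AT3G28940 (0.122) also lost it when single libraries were left out. BXL2 (at most 0.169), MIOX1 (0.133) and MIPS2 (0.106) lost it when any single library labelled PRP8Aa prp8bb, or wild type replicate 3, was left out. BXL2 also lost it with either other filter on low counts, MIPS2 with no filter on low counts (0.0838), and MIOX1 without wild type replicate 2 (0.0830) and with the replicate block (0.133).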

How the data were processed

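The authors' processing is known only in outline. Per the submitters' processing notes, reads were handled with Trimmomatic and STAR on TAIR10, with Subread 1.6.0 (featureCounts) and DESeq2 after that. Gene counts were made by the authors with featureCounts 1.6.0, per the file headers, on annotation release 37 at strand setting 1, and were deposited unnormalized for 33977 genes. Genes lying inside a longer gene of the opposite strand (472 pairs) had a median of 0.250% of its counts per base. The intron table was deposited without a header in the column layout of IRFinder. It gives a mean depth (coverage signal), counts of spliced and border reads and a retention ratio, which is a fraction between 0 and 1, computed by the authors. Recomputing it as depth over depth plus the larger splice count matched within 0.001 in 89.5% of the short introns and 80.0% of the 99470 introns where it could be recomputed. Its version and settings are not given in the sources used here. The table names no sample, so no test was made over introns. Exon bin counts were deposited too and were used for PRP8B alone, and the authors' table of their own comparison was not used here.

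Short introns were selected and described in Python 3.11.15 (pandas 2.3.3, numpy 2.4.6, scipy 1.17.1, matplotlib 3.10.9). Coordinates are those of the files (TAIR10), 1-based. Gene names and sequences came from RefSeq TAIR10.1, where 32547 genes were found by identifier, 99.95% with identical borders, and 99.99% of 70246 introns had GT-AG, GC-AG or AT-AC borders. Gene counts were tested in R 4.3.3 with edgeR 4.0.16 (glmQLFit robust, glmQLFTest, TMM, filterByExpr, no covariate, Benjamini-Hochberg over all genes, adjusted p under 0.05). Alternatives were DESeq2 1.42.0, other factors and filters, a replicate block, wild type replicate 1 halved and each library left out. The test was tested on simulated data of 19070 genes for this comparison where it found 17.9% of the 1.5-fold changes, 74.6% at 2-fold and 89.4% at 4-fold, and 13 calls were false. The biological coefficient of variation was 14.9%. Libraries of the same group differed by more than sampling noise, at a chi-square per gene of 5.06 to 89.4. The labels call the replicates biological without naming separate plants, so p-values reflect a spread that may be partly technical. Exact intervals, and limits from a count of 0 (3 counts of the total), cover counting error only.

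The short introns, the gene lists, the motifs and the rules were chosen with earlier results of these data known. Named introns are the 10 of highest ratio with at least 10 spliced reads and no warning, the 5 most spliced, the 5 shortest with at least 10 spliced reads, and those of the gene with the most. Named genes are their hosts, the 10 largest changes in each direction with non-overlapping replicates and a mean of at least 1 CPM, PRP8A, PRP8B and up to 4 per list. Genes of 5 or more short introns, SDG2, SEC15B, AT4G05631, AT5G02650, AT5G28320 and GH9B13 were named after their values were seen. Ribosomal protein genes were taken by their product in the annotation.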

Additional observations from a re-analysis of the deposited data

How the results depend on the processing

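Under each of the alternatives, short introns had the higher median ratio and the higher share at 0.1 or more against introns of common length. Their median ratio was 0.020 with a minimum of 50 reads, 0.0383 with a limit of 70 bases, 0.0238 with a limit of 80 bases, 0.0347 with known-exon introns included and 0.0385 from border reads. The share at 0.1 or more was 12.5% with a minimum of 20 reads (5.33% at common length), 6.09% with 50 (1.68%), 20.9% at 70 bases, 13.7% at 80 bases, 21.3% with known-exon introns, 15.3% without warnings and 18.2% from border reads. The median difference within genes was 0.0145 at 70 bases, 0.00498 at 80 bases and 0.00991 with known-exon introns. Host genes that rose numbered from 26 to 82 when single libraries were left out and those that fell from 6 to 53. For hosts with a ratio of 0.1 or more these counts ran from 5 to 18 and from 1 to 9. Over all genes tested they ran from 250 to 692 and from 181 to 707. The median log2 fold change of host genes was 0.0024 with upper-quartile factors. With the DESeq2 Wald test 86 host genes rose and 45 fell, with no filter 80 and 47, and with wild type replicate 1 halved 74 and 43. Over all tested genes, the deviations of same-numbered libraries showed little correlation (-0.051, -0.051 and 0.0955). A value over all genes cannot exclude a pairing that acts on some of them. With the replicate block 57 host genes rose and 22 fell, of which 52 and 17 were also called without it. Over all genes tested 463 rose and 423 fell with the block. MIOX1 (adjusted p = 0.133, edgeR) and NFU3 (0.0642) lost their calls there. Other named genes moved either way. With the block the adjusted p of edgeR was lower in BXL2 (0.0115 against 0.0492) and MIPS2 (0.00971 against 0.0262). It was higher in AT4G30650 (0.00564 against 0.000764) and FSD1 (0.0142 against 0.00251). Of 754 values of the 58 named genes under alternatives, 711 kept their side of the threshold, 42 lost a call, 1 gained it (PRP8A) and none turned its direction with a call. Ratios of introns with few reads move in coarse steps, and a 100-base read is longer than any short intron.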

Other observations

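The 366 short introns that overlap a known exon and met the read minimum lay outside the selection. Their median ratio was 0.166, and 63.4% of them reached 0.1. Of the short introns with a ratio of 0.1 or more by the deposited ratio (560) or by border reads (609), 489 reached it by both. Reads crossing the left genomic border of short introns numbered 10472 and those crossing the right border 7692. Among the fallen host genes with a short intron at 0.1 or more were NFU3 (ratio 0.264, log2 fold change -0.70) and OHP (0.124, -0.72), and among the risen ones BAT1 (0.158, 1.14) and AT1G75300 (0.177, 1.23), all chosen after their values were seen. NFU3 lost its call with the replicate block and without any of 4 single libraries, replicates 2 and 3 of either group (adjusted p = 0.118 at most, edgeR), while the other 3 kept theirs under each of the 13 alternatives.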
